A study of Mus musculus with 6 samples.

Results

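Transcripts were compared across all genes measured between activated mouse CD8 T cells pre-treated with E9 and cells pre-treated with the vehicle DMSO. The comparison rests on 4 arrays, 2 with E9 and 2 with DMSO, out of 6 Illumina bead arrays in the whole series. The other 2 arrays came from cells given epoxomicin, an inhibitor of the proteasome, and are used here only for the spread shared by the model and for a direct test of E9 against epoxomicin. Members were all genes with a named probe above background on at least 2 arrays, which left 13524 of the 21946 genes named on the array. E9, at 1 µM, is a compound known here only by its code name, which the labels describe as activating the proteasome. Epoxomicin was used at 0.5 µM. All groups shared the rest of the protocol: CD8 T cells from spleens of C57BL/6 mice aged 6 weeks received a compound or DMSO first and were then activated for 3 days on plate-bound antibodies to CD3 and CD28 (5 µg/ml) with IL-2. The design text calls the arrays biological duplicates of CD8+CD44+ cells, but nothing in the labels ties an array to an animal or a culture day, so p-values measure only the spread between these samples, which may be technical.

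Naive CD8 T cells that meet antigen and costimulation divide, secrete cytokines such as interleukin 2 and interferon gamma, and become effector cells, while some return to a resting, long-lived memory state. The proteasome degrades proteins marked with ubiquitin, among them cell cycle regulators and the inhibitors that hold NF-kB in the cytoplasm, and an interferon-induced form of it, the immunoproteasome, cuts peptides for MHC class I. NF-kB, AP-1 and NFAT are the transcription factors through which the T cell receptor switches on cytokine genes.

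The labelled identity was checked first. Cd8b1, the beta chain of CD8, had intensities of 7588 and 7516 with E9, against 4753 and 4900.5 with DMSO (log2 fold change 0.64 ± 0.062 (SE), adjusted p = 0.000103). Cd3d and Cd3e, 2 chains of the T cell receptor complex, were likewise bright on every array. Cd44, part of the labelled identity, differed between the groups, at 1402.3 and 1152.2 with E9, against 748.5 and 874.7 with DMSO. It was called higher, but the call was lost without DMSO array 1. The activation marker Il2ra, at 716.4 and 934.8 with E9, against 999.7 and 843.5 with DMSO, did not pass. The probe for Cd8a, the alpha chain, lay near background, at 36.5 and 48.5 with E9, against 38.8 and 36.6 with DMSO, so this probe says little about its transcript. Cd4, which defines helper T cells, was near background too, at 34.9 and 37 with E9, against 34.6 and 32.2 with DMSO. Of the markers of other cells on the array, 2 of 10 for NK cells, 10 of 30 for myeloid and dendritic cells, 11 of 20 for neutrophils, mast cells or basophils and 7 of 15 for red cells and platelets were not above background on any array. Those at background throughout included Ncr1, Itgam, Itgax, S100a9, Hba-a1 and Ppbp. Other markers of these cells passed it on some arrays: Csf1r, Elane and Hbb-b1 on 5, Lyz1, Lyz2, Mpeg1 and Pf4 on 4, and Klrb1c on 3. S100a8 was above background only with E9, at 37.7 and 47.2, against 28.2 and 26.3 with DMSO, and was called higher. It met the filter only through its E9 arrays, so the call adds no independent support. The call was also lost without E9 array 2 and without DMSO array 2. The macrophage marker Cd68 was above background on all 6 arrays, at 51.7 and 46 with E9, against 34.9 and 50.7 with DMSO. Foxp3, the factor of regulatory T cells, was also above background on all 6 arrays, at 274 and 247 with E9, against 315 and 311 with DMSO. It was called lower, but the call was lost under 10 of the 15 alternative settings. Intensities had been made alike across arrays by the authors, from 22 to 18026.1 with a median of 34.2 on each, so a change in total RNA cannot be seen. In bulk RNA, fewer cells of a type and less RNA per cell cannot be told apart. Over all genes tested, which are no replicates of each other, r was 0.996 between the E9 arrays and 0.998 between the DMSO arrays.

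Pre-treatment with E9 was followed by a broad difference in the transcriptome 3 days later. The largest falls were in the cytokine and chemokine genes Ccl1, Xcl1, Il2 and Ifng, and 15 of 29 NF-kB genes, 31 of 57 histone genes and 54 of 86 mitosis genes fell. Lmna and Ly6c1 were among the largest rises, and 22 of 41 T cell receptor signalling genes, 15 of 22 GIMAP and related GTPase genes, 34 of 60 interferon-stimulated genes and 10 of 20 NK-type lectin receptor genes rose. Of 13524 genes tested with limma, 2046 (15.1%) changed at an adjusted p under 0.05, 1019 (7.53%) upward and 1027 (7.59%) downward. The counts of every gene list are to be read against these shares, with 1 limit. The lists were chosen with earlier results of these data known, and 831 of their 2597 measured genes changed. A list whose share lies above that of all genes therefore does not stand out by that alone. Of the 13524 genes, 165 (1.22%) changed by at least 2-fold, 101 upward and 64 downward, and 16 by at least 4-fold, 5 upward and 11 downward. The median log2 fold change over all genes tested was -0.0058. All 2046 changed genes had E9 and DMSO arrays that did not overlap in intensity, as did 6953 (51.4%) of all genes. Such a gap, where it is given for a changed gene below, therefore adds no support beyond the test. With 1 DMSO array left out the count fell to 1313 (without DMSO array 1) and 1228 (without DMSO array 2), and the 2-fold count was 159 to 169 with 1 array left out and 269 with an offset of 16 in place of 50 in the background correction. Fold changes are log2 differences of background-corrected intensity, which understate the change of dim genes; each is given with its standard error (SE) from the model, and a value that follows rose or fell alone is a log2 fold change.

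**Figure D1:**
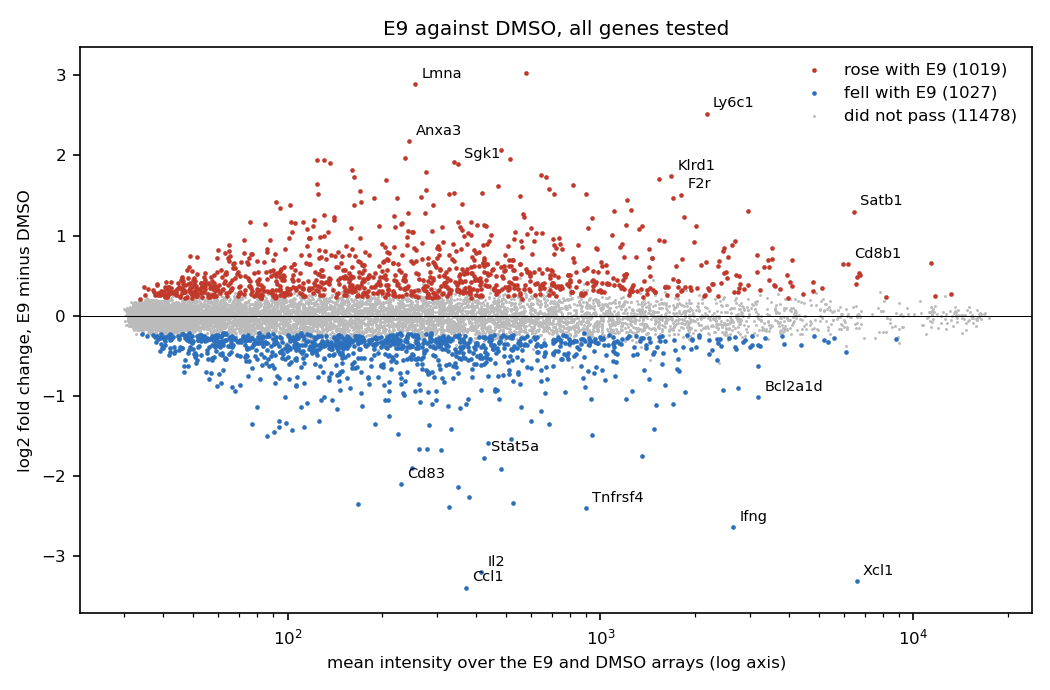
Each point is 1 of the 13524 genes tested, by its mean intensity over the E9 and DMSO arrays (horizontal log axis) and its log2 fold change, E9 minus DMSO (vertical axis). The 1019 genes that rose and the 1027 that fell spread over the whole range of intensity above the dimmest genes, with Ccl1, Xcl1 and Il2 at the bottom and Lmna and Ly6c1 near the top.

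How often a gene passed depended on how bright it was. With genes split into 4 groups of about equal size by intensity, 0.236% changed among the dimmest, with intensities up to 37.3, 11.1% and 24.5% in the middle groups, and 24.7% among the brightest, from 289 upward. Further probes gave a second reading for 912 of the changed genes, and 426 of these had a further probe that passed in the same direction, while 3 had one that passed in the opposite direction. Among genes changed by at least 2-fold, 69 had further probes, of which 60 had one that passed the same way and 0 one that passed the opposite way.

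Some fold changes depended on these choices by more than 1.5-fold. With an offset of 16, the log2 fold changes of dim genes were larger in size, at -4.31 for Ccl1, -3.86 for Il2, -3.29 for Bdh2, -2.13 for Zeb2, -2.10 for Ifitm2, -1.99 for Scd1, 3.81 for Lmna, 2.87 for Cox6a2, 2.70 for Ctla2b, 2.20 for F2rl2 and 2.03 for Ifit3. With the mean of all kept probes of a gene in place of the brightest, they were smaller, at 1.90 for Lmna, 0.49 for Il7r, 0.48 for Tgfbr2, 0.85 for Sytl2, 0.88 for Trib3, -1.69 for Cd200, -0.93 for Marcksl1, -1.15 for Stx11, -0.75 for Tnfsf14 and -0.37 for Tubb2b. Each of these genes kept its direction and an adjusted p under 0.05 in limma under both settings.

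The largest increase belonged to AA467197, a transcript with no other name in the files, which was named after its value was seen since the naming rule leaves out such labels. Its intensities were 965 and 1131 with E9, against 111.5 and 99.2 with DMSO (log2 fold change 3.03, adjusted p = 1.24e-07). Next came Lmna, which encodes lamins A and C of the nuclear envelope, at 509.9 and 432.5 with E9, against 39.3 and 43.5 with DMSO (log2 fold change 2.89 ± 0.084 (SE), adjusted p = 1.24e-07). Both E9 arrays were far above both DMSO arrays. Ly6c1, a surface antigen of memory CD8 T cells, had 3722 and 3755 with E9, against 590.3 and 671 with DMSO (log2 fold change 2.52 ± 0.077 (SE), adjusted p = 1.24e-07). The largest decrease was in Ccl1, a chemokine gene, at 45.3 and 41.1 with E9, against 628 and 774.5 with DMSO (log2 fold change -3.39 ± 0.11 (SE), adjusted p = 1.65e-07).

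**Figure D2:**
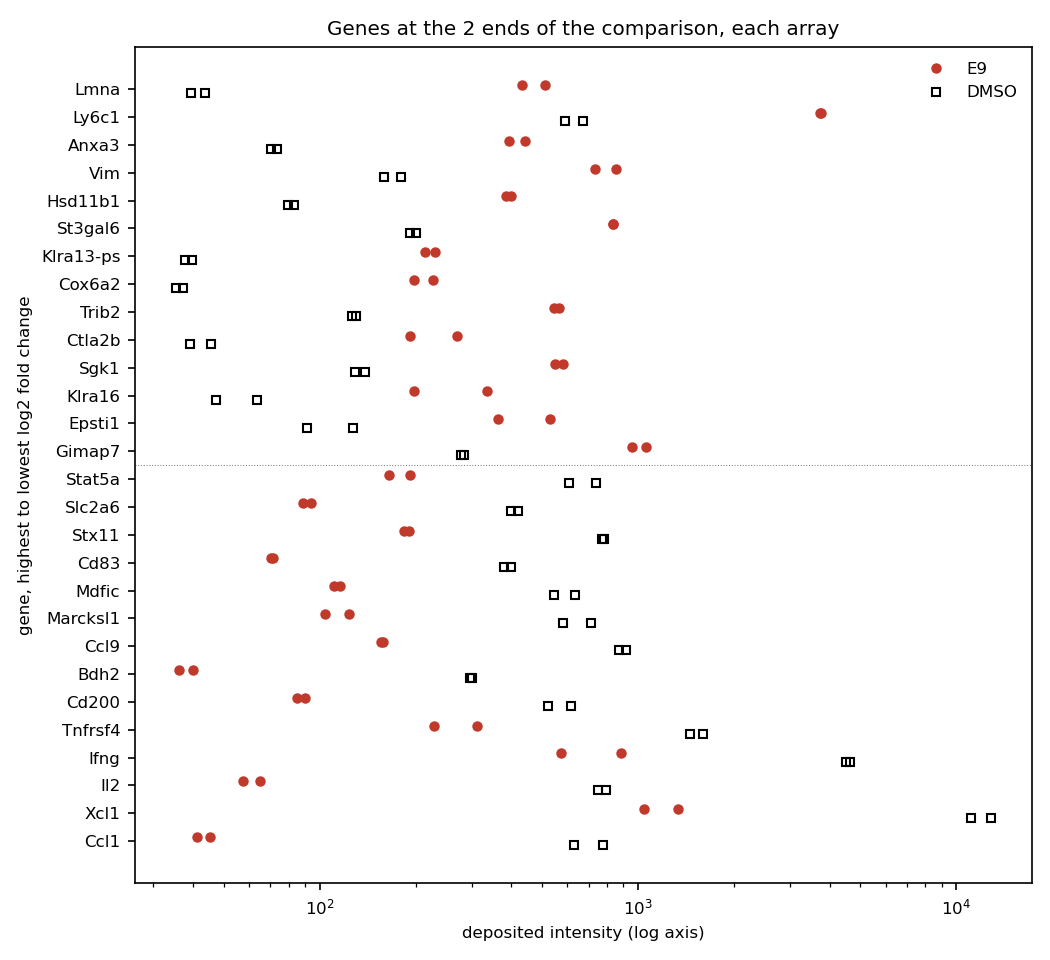
The 14 highest and 14 lowest named genes by log2 fold change, with the deposited intensity of each E9 array (filled circles) and each DMSO array (open squares) on a log axis. Only genes whose E9 and DMSO arrays did not overlap could be shown, so the gap in each is a condition of the choice. They run from Lmna, at 510 and 432.5 with E9, to Ccl1, at 45.3 and 41.1 with E9.

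Secreted mediators moved in both directions, and the largest falls were among them. In the list of secreted cytokines and growth factors 9 of 34 measured genes rose and 6 fell; among chemokines 2 of 13 measured genes rose and 4 fell. Il2, the T cell growth factor, had 57.2 and 65 with E9, against 793 and 749 with DMSO (log2 fold change -3.20 ± 0.072 (SE), adjusted p = 4.89e-08). Both E9 values were near background while both DMSO values were bright. Ifng, interferon gamma, had 882 and 575 with E9, against 4501.5 and 4643 with DMSO (log2 fold change -2.64 ± 0.15 (SE), adjusted p = 4.48e-06), and here the 2 E9 arrays differed from each other more than the 2 DMSO arrays did. Xcl1, lymphotactin, a chemokine that attracts cross-presenting dendritic cells, had 1337.5 and 1048 with E9, against 12877 and 11126 with DMSO (log2 fold change -3.31 ± 0.11 (SE), adjusted p = 1.65e-07). Ccl9, another chemokine, had 155 and 158 with E9, against 869.6 and 919.7 with DMSO (log2 fold change -2.33 ± 0.065 (SE), adjusted p = 1.1e-07). Il3, a growth factor of blood progenitors, was not above background with E9 and was at least 2.73-fold lower there (adjusted p = 2.04e-06). Ccl3, an inflammatory chemokine, fell by less, with 5425 and 4832 with E9, against 7077 and 7020.4 with DMSO (log2 fold change -0.46 ± 0.073 (SE), adjusted p = 0.00224). In the other direction Ccl5, a chemokine of memory and effector T cells, had 1224 and 1289 with E9, against 726 and 660.0 with DMSO (log2 fold change 0.84 ± 0.099 (SE), adjusted p = 0.000364), and Cxcl10, an interferon-induced chemokine, had 91.9 and 93.6 with E9, against 51.8 and 45.9 with DMSO (log2 fold change 0.67 ± 0.066 (SE), adjusted p = 0.000125). Sema4a, a semaphorin that costimulates T cells, had 343 and 336 with E9, against 106 and 107 with DMSO (log2 fold change 1.47 ± 0.071 (SE), adjusted p = 1.67e-06).

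Several cytokine genes that activated T cells also express did not pass; these 3 were chosen after their values were seen. Tnf had 421 and 492 with E9, against 406.5 and 417 with DMSO (log2 fold change 0.14, adjusted p = 0.376). Csf2 had 287 and 185.5 with E9, against 252 and 206 with DMSO (log2 fold change 0.018, adjusted p = 0.971). Ccl4, at 14509.5 and 15677 with E9, against 15723 and 16288 with DMSO, was near the top of the scale in both groups (log2 fold change -0.085, adjusted p = 0.594).

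Receptors and ligands of the TNF superfamily, which carry costimulatory and death signals, mostly fell where they passed: 2 of 24 measured genes rose and 8 fell, with a median of -0.11. Tnfrsf4, the costimulatory receptor OX40, had 313 and 228.5 with E9, against 1452.5 and 1603 with DMSO (log2 fold change -2.40 ± 0.12 (SE), adjusted p = 1.82e-06). The ligand genes Tnfsf11 (RANKL), Tnfsf14 (LIGHT) and Tnfsf8 (CD30 ligand) had log2 fold changes of -1.39, -1.36 and -0.77, and Tnfrsf18 (GITR) of -0.64. Every one of these E9 arrays lay below both DMSO arrays, as for every gene that passed and fell. Tnfrsf26, a decoy-like receptor of the family, rose (143 and 183 with E9, against 69 and 72.1 with DMSO; log2 fold change 0.96 ± 0.12 (SE), adjusted p = 0.000452).

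Co-signalling receptors split. In that list 7 of 32 measured genes rose and 9 fell. Cd200, the ligand of an inhibitory receptor, had 90.2 and 84.9 with E9, against 522 and 616 with DMSO (log2 fold change -2.39 ± 0.092 (SE), adjusted p = 3.59e-07). Lag3, an inhibitory receptor that binds MHC class II, had 108 and 118 with E9, against 434 and 394 with DMSO (log2 fold change -1.67 ± 0.079 (SE), adjusted p = 1.38e-06). Crtam, an adhesion molecule of activated cytotoxic cells, and Slamf1, a self-ligand of lymphocytes, fell by similar amounts (-1.68 and -1.66). Cd2, an adhesion receptor that lowers the threshold of T cell activation, rose, with 1286 and 1209.6 with E9, against 377 and 395 with DMSO (log2 fold change 1.63 ± 0.074 (SE), adjusted p = 1.07e-06). The inhibitory receptor genes Lilrb4a and Gp49a, which are near-identical copies that probes may not separate, also rose (1.28 and 1.47).

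Receptors for cytokines and for tissue homing rose more often than they fell. Among cytokine receptor chains 9 of 33 measured genes rose and 2 fell, and among chemoattractant and homing receptors 12 of 34 measured genes rose and 3 fell. Il7r, the receptor for the survival cytokine interleukin 7, had 389.6 and 412 with E9, against 146 and 153 with DMSO (log2 fold change 1.29 ± 0.07 (SE), adjusted p = 3.15e-06). Tgfbr2, a chain of the TGF-beta receptor, had 1197 and 1453.5 with E9, against 589 and 515 with DMSO (log2 fold change 1.22 ± 0.1 (SE), adjusted p = 3.67e-05). Ifngr1, a chain of the interferon gamma receptor, had 180.2 and 186 with E9, against 77.9 and 79.9 with DMSO (log2 fold change 1.00 ± 0.07 (SE), adjusted p = 1.39e-05). All 3 E9 pairs lay above their DMSO pairs, as for every gene that passed and rose. Cxcr6, a receptor of resident memory T cells, and Gpr183, a receptor for oxysterols, rose by 1.10 and 1.01 on the log2 scale. Ccr7, which guides T cells to lymph nodes, fell, with 370.5 and 521 with E9, against 940.1 and 830.5 with DMSO (log2 fold change -0.97 ± 0.17 (SE), adjusted p = 0.00357). Among adhesion genes, Itgb7 and Itgae, which encode the 2 chains of an integrin that binds E-cadherin, had 478 and 509.9 with E9, against 199 and 212 with DMSO (log2 fold change 1.17 ± 0.07 (SE), adjusted p = 5.32e-06) and 146 and 169 with E9, against 71.9 and 76.5 with DMSO (log2 fold change 0.87 ± 0.076 (SE), adjusted p = 5.55e-05). Nt5e, the enzyme CD73 that makes adenosine, had 504 and 533.5 with E9, against 169 and 157 with DMSO (log2 fold change 1.53 ± 0.067 (SE), adjusted p = 8.8e-07). In the whole list of integrins and adhesion molecules 7 of 34 measured genes rose and 2 fell. Both counts changed with any 1 array left out, and neither is stable.

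Many genes of the T cell receptor complex and its nearest signalling rose: 22 of 41 measured genes rose and 4 fell, with a median of 0.33 against -0.0058 over all genes. Cd3d had 3929.9 and 4099 with E9, against 2665 and 2606 with DMSO (log2 fold change 0.60 ± 0.065 (SE), adjusted p = 0.000201) and Cd3e had 2069.7 and 2127 with E9, against 1602 and 1659.9 with DMSO (log2 fold change 0.36 ± 0.063 (SE), adjusted p = 0.00399). Trat1, an adaptor that holds the receptor complex at the surface, had 496 and 570.4 with E9, against 189 and 185 with DMSO (log2 fold change 1.39 ± 0.091 (SE), adjusted p = 9.53e-06). Dgka, a kinase that removes the second messenger diacylglycerol, Dok2, an adaptor that restrains signalling, and Skap1, an adaptor for integrin activation, rose by 1.04, 1.12 and 1.01. Tespa1, another signalling adaptor, fell (159.9 and 175 with E9, against 375 and 315 with DMSO; log2 fold change -0.93 ± 0.088 (SE), adjusted p = 8.87e-05). Regulators of small GTPases and of G protein signalling also rose more often than they fell: 23 of 59 measured genes rose and 5 fell. Rgs10 had 2305.5 and 2902 with E9, against 1100.0 and 1080.3 with DMSO (log2 fold change 1.23 ± 0.098 (SE), adjusted p = 3.19e-05), whereas Rgs1 had 931 and 950.5 with E9, against 2091 and 2027 with DMSO (log2 fold change -1.11 ± 0.065 (SE), adjusted p = 4.84e-06); both encode proteins that switch off G protein signalling, and they moved in opposite directions. Among variable segments of T cell receptor and immunoglobulin genes, 5 of the 22 tested rose and 0 fell; near-identical segments may share probes.

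NF-kB subunits and feedback genes fell without exception where they passed: 0 of 29 measured genes rose and 15 fell, with a median of -0.36. Cd83, a surface marker of activation, had 71.4 and 70.5 with E9, against 399 and 380.4 with DMSO (log2 fold change -2.10 ± 0.064 (SE), adjusted p = 1.24e-07). Nfkb2, a subunit of NF-kB, had 135 and 139 with E9, against 286 and 285 with DMSO (log2 fold change -0.93 ± 0.067 (SE), adjusted p = 1.56e-05). Nfkbia, the inhibitor IkB-alpha that NF-kB itself induces, had 203 and 273 with E9, against 573 and 459 with DMSO (log2 fold change -1.05 ± 0.13 (SE), adjusted p = 0.000558), and both E9 arrays lay below both DMSO arrays. Bcl2l1 (BCL-XL) and Bcl2a1d and Bcl2a1b (A1), which protect cells from apoptosis, fell by 0.99, 1.02 and 0.93 on the log2 scale; the A1 genes are near-identical copies and their probes may not tell them apart. In contrast Bcl2, another survival gene, rose, with 1660.5 and 2085 with E9, against 925 and 761 with DMSO (log2 fold change 1.13 ± 0.14 (SE), adjusted p = 0.000493). Leaving out any 1 array left 14 or 15 of the NF-kB genes lower.

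Signalling and transcription factor genes moved in both directions. Stat5a, which transmits interleukin 2 signals, had 165 and 191.5 with E9, against 607 and 738 with DMSO (log2 fold change -1.77 ± 0.11 (SE), adjusted p = 5.91e-06), and Jak2, a cytokine receptor kinase, had 193 and 197 with E9, against 455 and 454 with DMSO (log2 fold change -1.12 ± 0.065 (SE), adjusted p = 4.64e-06). Socs2, a feedback inhibitor of cytokine receptors, rose, with 842 and 921 with E9, against 423 and 413 with DMSO (log2 fold change 1.03 ± 0.082 (SE), adjusted p = 3.3e-05). Sgk1, a kinase induced by glucocorticoids and growth factors, had 549.8 and 579.5 with E9, against 139 and 129 with DMSO (log2 fold change 1.89 ± 0.067 (SE), adjusted p = 2.12e-07), and Tsc22d3, the glucocorticoid-induced leucine zipper, had 208 and 216 with E9, against 118 and 98.9 with DMSO (log2 fold change 0.83 ± 0.087 (SE), adjusted p = 0.000178). Hsd11b1, the enzyme that regenerates active glucocorticoid, had 384 and 400.0 with E9, against 83.1 and 79.5 with DMSO (log2 fold change 1.97 ± 0.068 (SE), adjusted p = 1.8e-07). In the whole list of glucocorticoid, steroid and circadian genes 8 of 36 measured genes rose and 6 fell; rises numbered 5 without DMSO array 1 and falls numbered 3 without E9 array 2, 2 without DMSO array 1 and 2 without DMSO array 2. Among lineage and fate factors, Klf2, which maintains quiescence and lymph node homing, had 299 and 358 with E9, against 80.7 and 86.7 with DMSO (log2 fold change 1.69 ± 0.085 (SE), adjusted p = 1.95e-06), and Satb1, a chromatin organiser of T cells, had 9680.2 and 8728 with E9, against 3882 and 3564 with DMSO (log2 fold change 1.30 ± 0.086 (SE), adjusted p = 1e-05). Zeb2, a factor of terminal effector cells, had 39.8 and 40.5 with E9, against 143 and 151 with DMSO (log2 fold change -1.39 ± 0.063 (SE), adjusted p = 1.06e-06), and Foxp1, a factor of T cell quiescence, had 193 and 198 with E9, against 430.5 and 370.5 with DMSO (log2 fold change -0.94 ± 0.084 (SE), adjusted p = 6.4e-05). Both were lower on each E9 array, as for every gene that passed and fell. Irf4 and Bach2 fell by 0.48 and 0.69, while Myc (-0.21) and Batf (-0.22) did not pass (adjusted p = 0.0542 and 0.0789). Of the whole list 17 of 66 measured genes rose and 13 fell; rises numbered 11 without DMSO array 1 and 10 without DMSO array 2. Among AP-1, EGR, NR4A, NFAT and CREB-family genes 12 of 53 measured genes rose and 10 fell; falls numbered 5 without DMSO array 2. Fosb (0.95) and Ddit3 (1.38) rose and Nr4a2 (-1.14) fell.

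Many interferon-stimulated and GIMAP genes rose. Among GIMAP and immunity-related GTPases, 15 of 22 measured genes rose and 1 fell, with a median of 0.53. GIMAP proteins support lymphocyte survival. Gimap7 had 1062 and 959.7 with E9, against 278 and 284 with DMSO (log2 fold change 1.75 ± 0.069 (SE), adjusted p = 4.09e-07). Among interferon-stimulated genes outside the GTPases, 34 of 60 measured genes rose and 4 fell, with a median of 0.29. Ifit3, an antiviral protein, had 132 and 161 with E9, against 41.6 and 42.4 with DMSO (log2 fold change 1.34 ± 0.083 (SE), adjusted p = 6.59e-06). Usp18, which removes the interferon-induced tag ISG15, had 361 and 335 with E9, against 163 and 148 with DMSO (log2 fold change 1.05 ± 0.073 (SE), adjusted p = 1.35e-05). Ifitm2 and Slfn2 fell instead (-1.43 and -1.05). Ifng itself was lower on the same E9 arrays.

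Presentation genes and proteasome genes differed by class. In the list of MHC class I and peptide loading genes 13 of 24 measured genes rose and 0 fell; rises numbered 6 without E9 array 2, 6 without DMSO array 1 and 3 without DMSO array 2. H2-D1 had 4562 and 4714 with E9, against 3326 and 3592 with DMSO (log2 fold change 0.42 ± 0.071 (SE), adjusted p = 0.00309). Class I genes share sequence that probes may not resolve. H2-Ke6, counted among the 13, is a gene of the MHC region that neither presents nor loads peptides. H2-DMa, which loads peptides on MHC class II, had 1063 and 1072.5 with E9, against 375 and 338 with DMSO (log2 fold change 1.52 ± 0.081 (SE), adjusted p = 2.75e-06), while the class II chain H2-Ab1 had 57.1 and 55.5 with E9, against 125 and 155 with DMSO (log2 fold change -1.01 ± 0.11 (SE), adjusted p = 0.000183). Among immunoproteasome subunits and proteasome activators 4 of 9 measured genes rose and 0 fell; rises numbered 2 without E9 array 2. Psmb10, a catalytic subunit, had 1614 and 1308 with E9, against 717 and 701 with DMSO (log2 fold change 1.01 ± 0.092 (SE), adjusted p = 7.64e-05), and Psmb8, another, rose by 0.38. Of 34 measured constitutive proteasome subunits, 0 rose and 0 fell at an adjusted p under 0.05 in limma, and 1 had an unadjusted p under 0.05; without E9 array 2, 3 fell. Psmb5, the constitutive catalytic subunit replaced by Psmb8, had 831 and 875 with E9, against 909 and 941 with DMSO (log2 fold change -0.11 ± 0.064 (SE), adjusted p = 0.321). The 34 constitutive genes include assembly factors that are not subunits, such as Psmg1, Psmg2, Psmg3 and Psmg4. The list of 9 includes the assembly factor Pomp and the inhibitor Psmf1, which did not pass.

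Among NK-type lectin receptors, many of which sense MHC class I on other cells, 10 of 20 measured genes rose and 0 fell. Klrd1, the CD94 chain, had 2423 and 2798 with E9, against 735 and 782 with DMSO (log2 fold change 1.75 ± 0.08 (SE), adjusted p = 1.11e-06), with both E9 arrays above both DMSO arrays. Klre1 and Klra7 rose by 0.98 and 1.42. The genes that rose were Klrc1, Klrd1, Klre1, Klra1, Klra3, Klra4, Klra7, Klra9, Klra10 and Klra13-ps. Klra genes are near-identical copies whose probes may cross-hybridise, so their separate changes are uncertain. For the list of NK cell markers, which shares members with this one, 3 of 8 measured genes rose and 0 fell, and 6 of its 10 genes on the array were above background on each E9 array, against 6 and 3 on the DMSO arrays. Ncr1, which defines NK cells, was not above background on any array, and Nkg7, a granule protein of cytotoxic cells, was at 2002.5 and 1978 with E9, against 2067.5 and 2161 with DMSO.

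**Figure D3:**
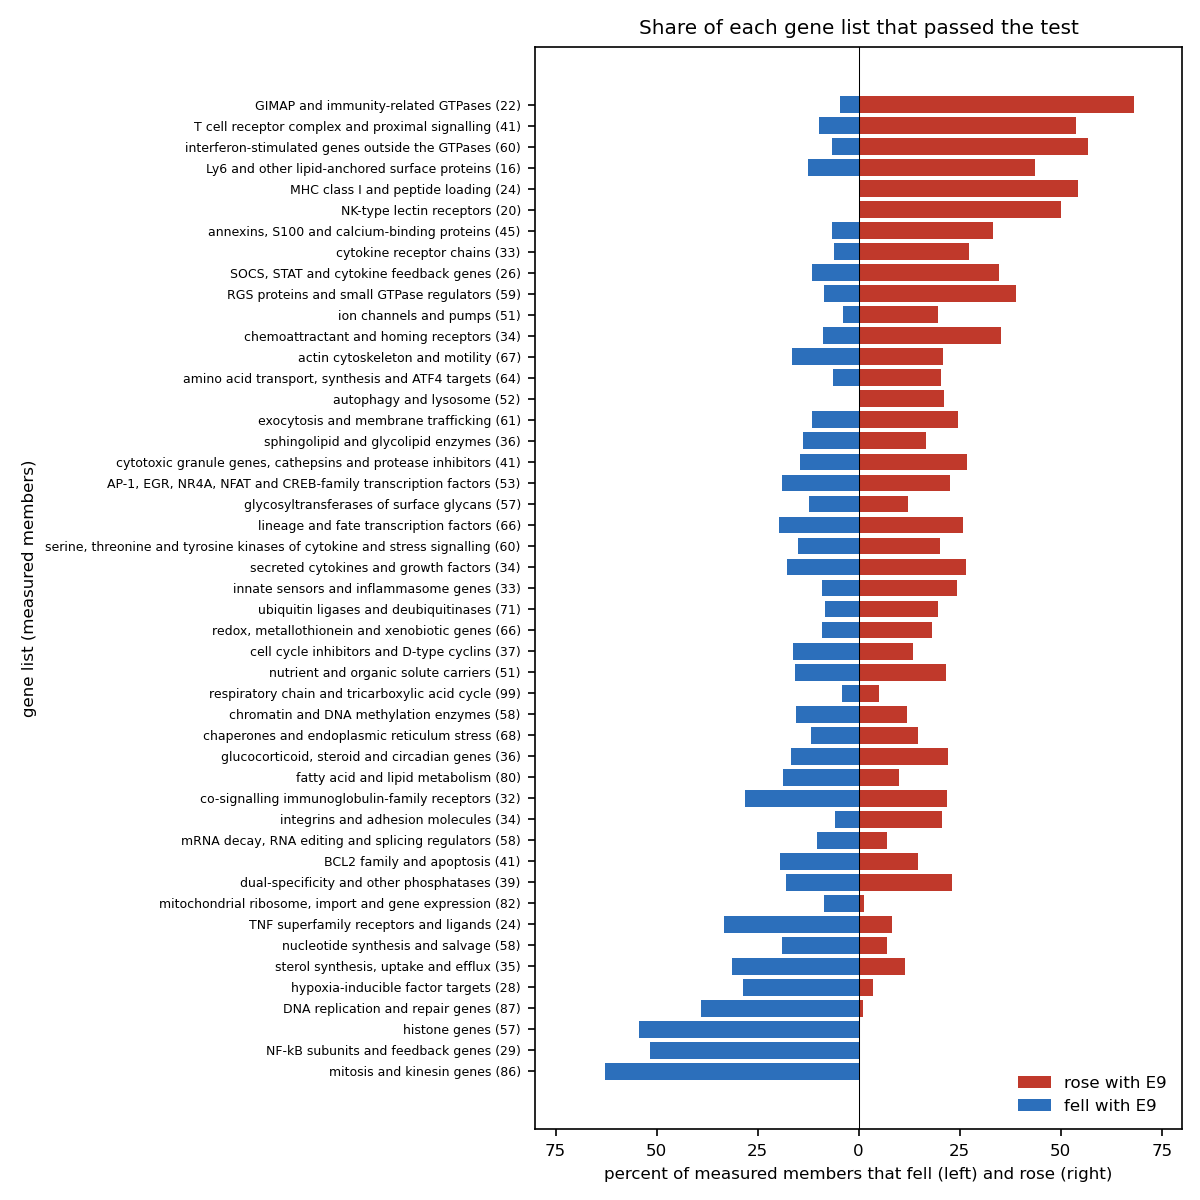
For each gene list with at least 8 changed members, bars give the percent of its measured members that rose (right) and fell (left) with E9, ordered by median log2 fold change. The list of GIMAP and immunity-related GTPases stands at the top, with a median of 0.53, and mitosis genes at the bottom, with -0.38.

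Some genes of the nuclear lamina, of calcium binding and of the cytoskeleton changed. In the list of nuclear lamina, envelope and intermediate filament genes 6 of 24 measured genes rose and 0 fell, with a median of 0.055. Besides Lmna, Vim, the filament protein vimentin, had 851 and 734 with E9, against 179.5 and 159 with DMSO (log2 fold change 2.07 ± 0.089 (SE), adjusted p = 8.4e-07), and Sun2, which links the lamina to the cytoskeleton, had 480.0 and 507 with E9, against 293.5 and 294 with DMSO (log2 fold change 0.70 ± 0.065 (SE), adjusted p = 8.4e-05). In the list of annexins, S100 and calcium-binding proteins 15 of 45 measured genes rose and 3 fell. Both counts were lower without DMSO array 2, and the 15 include S100a8, which met the filter only through its E9 arrays. Anxa3, a membrane-binding annexin, had 441 and 394 with E9, against 70.1 and 73.6 with DMSO (log2 fold change 2.18 ± 0.072 (SE), adjusted p = 1.64e-07), and S100a13, S100a6 and S100a11 rose by 1.58, 1.17 and 0.85. Lgals1, galectin 1, a lectin that dampens T cell responses, had 655.5 and 785 with E9, against 244 and 193.5 with DMSO (log2 fold change 1.61 ± 0.11 (SE), adjusted p = 1.22e-05). Among tubulins and microtubule-associated genes 0 of 29 measured genes rose and 6 fell. Tubb2b, a beta-tubulin, had 64.8 and 57.7 with E9, against 181 and 199 with DMSO (log2 fold change -1.31 ± 0.073 (SE), adjusted p = 3.67e-06). Among actin cytoskeleton and motility genes 14 of 67 measured genes rose and 11 fell, with a median of 0.071; rises numbered 7 without DMSO array 1 and 8 without DMSO array 2. Marcksl1, an actin-binding protein of the membrane, had 104 and 124 with E9, against 714 and 581 with DMSO (log2 fold change -2.26 ± 0.13 (SE), adjusted p = 5.16e-06).

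Many genes of cell division fell, whereas few ribosome genes passed. Among mitosis and kinesin genes 0 of 86 measured genes rose and 54 fell, with a median of -0.38 and a lowest value of -0.76. Cdk1, the kinase that starts mitosis, had 408 and 413 with E9, against 688 and 676 with DMSO (log2 fold change -0.70 ± 0.063 (SE), adjusted p = 6.88e-05), and Cenpf, a kinetochore protein, had 62.9 and 61.5 with E9, against 137 and 109.6 with DMSO (log2 fold change -0.76 ± 0.10 (SE), adjusted p = 0.000799). Among histone genes 0 of 57 measured genes rose and 31 fell, with a median of -0.30; their sequences are near-identical, and probes may share targets. Among DNA replication and repair genes 1 of 87 measured genes rose and 34 fell; falls numbered 20 without DMSO array 1 and 14 without DMSO array 2. Lig1, the ligase that joins new DNA, had 819.9 and 684 with E9, against 1199.8 and 1159 with DMSO (log2 fold change -0.64 ± 0.085 (SE), adjusted p = 0.000784). Of 73 measured ribosome biogenesis genes, 0 rose and 2 fell, with a median of -0.068, and of 69 genes of ribosomal proteins and translation factors 0 rose and 1 fell.

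Metabolic genes changed in part. In the list of the respiratory chain and tricarboxylic acid cycle 9.09% of measured genes passed, below the 15.1% of all genes tested. For glycolysis and pentose phosphate genes the share was 16.7%, close to that of all genes. Among glycolysis and pentose phosphate genes 0 of 36 measured genes rose and 6 fell; falls numbered 9 without E9 array 1 and 3 without DMSO array 1. Slc2a6, a member of the glucose transporter family, had 94.2 and 88.6 with E9, against 399 and 420.4 with DMSO (log2 fold change -1.89 ± 0.07 (SE), adjusted p = 2.98e-07), and Pfkl, a phosphofructokinase, had 1529.7 and 1345 with E9, against 2069.7 and 2118 with DMSO (log2 fold change -0.54 ± 0.087 (SE), adjusted p = 0.00254). Among genes of the respiratory chain and tricarboxylic acid cycle 5 of 99 measured genes rose and 4 fell; rises numbered 3 without DMSO array 1 and 2 without DMSO array 2 and falls numbered 6 without E9 array 2 and 1 without DMSO array 1. Cox6a2, a muscle form of a cytochrome oxidase subunit, had 198 and 227 with E9, against 35.3 and 37.2 with DMSO (log2 fold change 1.94 ± 0.074 (SE), adjusted p = 3.41e-07). Among sterol genes 4 of 35 measured genes rose and 11 fell; rises numbered 2 without DMSO array 2 and falls numbered 7 without DMSO array 1 and 7 without DMSO array 2. The enzymes Lss and Mvd of cholesterol synthesis fell (-0.65 and -0.53) while Npc1 and Npc2, which export cholesterol from lysosomes, rose (0.45 and 0.73). Scd1 and Scd2, which desaturate fatty acids, fell by 1.31 and 1.09, and Bdh2, a short-chain dehydrogenase, had 39.9 and 36.2 with E9, against 296.5 and 301 with DMSO (log2 fold change -2.35 ± 0.064 (SE), adjusted p = 1.1e-07). In the list of amino acid and ATF4 genes 13 of 64 measured genes rose and 4 fell; falls numbered 2 without DMSO array 2. Trib3, a pseudokinase induced by stress, had 514.5 and 483 with E9, against 146 and 171 with DMSO (log2 fold change 1.51 ± 0.092 (SE), adjusted p = 6.2e-06). The list of chaperones and endoplasmic reticulum stress moved both ways, as 10 of 68 measured genes rose and 8 fell, with a median of -0.015. Both counts changed with any 1 array left out. Its highest log2 fold change was that of Xbp1, a factor of the endoplasmic reticulum stress response. Xbp1 had 2908 and 2655 with E9, against 1285.5 and 1254 with DMSO (log2 fold change 1.11 ± 0.074 (SE), adjusted p = 1.04e-05). Among autophagy and lysosome genes 11 of 52 measured genes rose and 0 fell; rises numbered 7 without DMSO array 1. Sqstm1, the cargo receptor p62, had 603 and 571 with E9, against 368 and 384 with DMSO (log2 fold change 0.61 ± 0.065 (SE), adjusted p = 0.000189). Mt1, a metal-binding metallothionein, had 1181 and 970.4 with E9, against 2374 and 2278.5 with DMSO (log2 fold change -1.10 ± 0.10 (SE), adjusted p = 9.32e-05), and Glrx, a glutaredoxin, had 1214 and 1474 with E9, against 439.7 and 458 with DMSO (log2 fold change 1.52 ± 0.089 (SE), adjusted p = 4.97e-06).

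Further named genes belonged to secretion, survival and RNA control. Stx11, a fusion protein of cytotoxic granules, had 191 and 183.5 with E9, against 773 and 781 with DMSO (log2 fold change -1.91 ± 0.071 (SE), adjusted p = 2.98e-07), while Sytl2, a tether of secretory vesicles, had 266 and 261 with E9, against 62.8 and 60.3 with DMSO (log2 fold change 1.73 ± 0.065 (SE), adjusted p = 3.11e-07). Serpinb6b, a protease inhibitor of cytotoxic cells, had 610.3 and 601 with E9, against 2039 and 2166 with DMSO (log2 fold change -1.75 ± 0.085 (SE), adjusted p = 1.57e-06). Casp6, an executioner caspase, had 1021.5 and 1073 with E9, against 322 and 273 with DMSO (log2 fold change 1.74 ± 0.1 (SE), adjusted p = 4.48e-06). Zfp36, which destabilises cytokine mRNAs, had 607 and 579.7 with E9, against 247 and 266 with DMSO (log2 fold change 1.13 ± 0.067 (SE), adjusted p = 5.2e-06), and its relative Zfp36l1 had 4401 and 4384.5 with E9, against 2775 and 2608 with DMSO (log2 fold change 0.70 ± 0.073 (SE), adjusted p = 0.000168). Klhl6, an adaptor of a ubiquitin ligase, had 2479 and 2249 with E9, against 664.5 and 755 with DMSO (log2 fold change 1.70 ± 0.08 (SE), adjusted p = 1.37e-06). Ezh2, the methyltransferase of Polycomb silencing, had 1187 and 1076 with E9, against 2128 and 2019.5 with DMSO (log2 fold change -0.86 ± 0.074 (SE), adjusted p = 5.39e-05). St3gal6, a sialyltransferase, had 833.5 and 833.5 with E9, against 201 and 193 with DMSO (log2 fold change 1.95 ± 0.062 (SE), adjusted p = 1.51e-07). For each of these genes both E9 arrays lay on the same side of both DMSO arrays, as for every changed gene and 51.4% of all genes tested.

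Of the 2046 changed genes, 831 stood in one of the 65 lists and 1215 in none. The lists cover 2597 of the 13524 genes tested, so listed genes passed more often than the others. The lists were chosen with earlier results of these data known. Among genes in no list, the pseudokinase gene Trib2 had 564 and 544 with E9, against 127 and 129.7 with DMSO (log2 fold change 1.91 ± 0.062 (SE), adjusted p = 1.64e-07). Ctla2b, a gene for a protease inhibitor, had 192 and 269.8 with E9, against 45.5 and 39.1 with DMSO (log2 fold change 1.90 ± 0.12 (SE), adjusted p = 9e-06). Mdfic, an inhibitor of MyoD-family factors, had 111 and 116 with E9, against 546.5 and 633 with DMSO (log2 fold change -2.14 ± 0.083 (SE), adjusted p = 3.63e-07), Rilpl2, a partner of Rab GTPases, had 249 and 256 with E9, against 782 and 782 with DMSO (log2 fold change -1.54 ± 0.067 (SE), adjusted p = 8.72e-07), and Pcgf5, a Polycomb protein, had 866 and 737 with E9, against 2111 and 2224 with DMSO (log2 fold change -1.41 ± 0.087 (SE), adjusted p = 6.56e-06). Zbtb2, a zinc finger gene, also passed but with DMSO arrays far apart, at 381 and 321 with E9, against 1427 and 612 with DMSO (log2 fold change -1.36 ± 0.33 (SE), adjusted p = 0.0207; adjusted p = 0.21 with a trended and robust prior, and it also lost its call without E9 array 2 and without DMSO array 1). Some genes were above background in 1 group alone, for which the bright mean over the lowest signal above background gives only a bound. Any of them that was also below background with epoxomicin met the filter only through its bright group, so its test is no independent support. Fgl2, an immunoregulatory fibrinogen-like protein, was at least 1.59-fold higher with E9 (adjusted p = 0.000546), Scimp, an adaptor of immune cells, at least 1.54-fold (0.000278) and Oasl2, an interferon-induced protein, at least 1.45-fold (0.000233). Idi2, an isomerase of sterol synthesis, was at least 2.45-fold lower (adjusted p = 4.05e-06), and Acsl6, a fatty acid activating enzyme, at least 1.49-fold lower (9.66e-05).

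Neighbouring genes moved together in places. Of 12401 tested genes with a RefSeq position, runs of at least 4 neighbours that all changed 1 way numbered 11. On chromosome 6, Klra4, Klra9, Klra7, Klra10, Klra13-ps, Klra3 and Klra1 rose, and Gimap8, Gimap9, Gimap4, Gimap6 and Gimap7 rose. On chromosome 13, 4 runs of histone genes fell, and the thrombin receptor family genes F2rl1, F2r and F2rl2 rose with their neighbours Crhbp and Iqgap2. F2r, the main thrombin receptor, had 2798 and 2582 with E9, against 964 and 888 with DMSO (log2 fold change 1.51 ± 0.082 (SE), adjusted p = 3.21e-06), and F2rl2 had 145 and 146 with E9, against 41.2 and 35.3 with DMSO (log2 fold change 1.42 ± 0.071 (SE), adjusted p = 1.82e-06). On chromosome 10, Ddt, Gstt3, Gstt1, Gstt4 and Gstt2 fell, with Ddt, an enzyme related to the cytokine MIF, at 438 and 525.5 with E9, against 1451 and 1345 with DMSO (log2 fold change -1.49 ± 0.094 (SE), adjusted p = 7.5e-06). On chromosome 19 Lipa, Ifit2, Ifit3 and Ifit3b rose, on chromosome 17 Ypel5, Lbh, Ehd3 and Xdh, and on chromosome 1 A130010J15Rik, Hsd11b1, G0s2 and Lamb3. Klra, Gstt, Gimap, Ifit3 and histone genes are families of similar sequence, whose probes may share targets. The members that kept their call under every alternative setting in which they were tested numbered 3 of 5, 3 of 5, 4 of 5 and 3 of 4 in the histone runs, 5 of 7 Klra genes, 4 of 5 Gimap genes, 4 of 5 in the F2r run, 5 of 5 in the Ddt run, 2 of 4 on chromosome 19, 2 of 4 on chromosome 17 and 2 of 4 on chromosome 1.

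**Figure D4:**
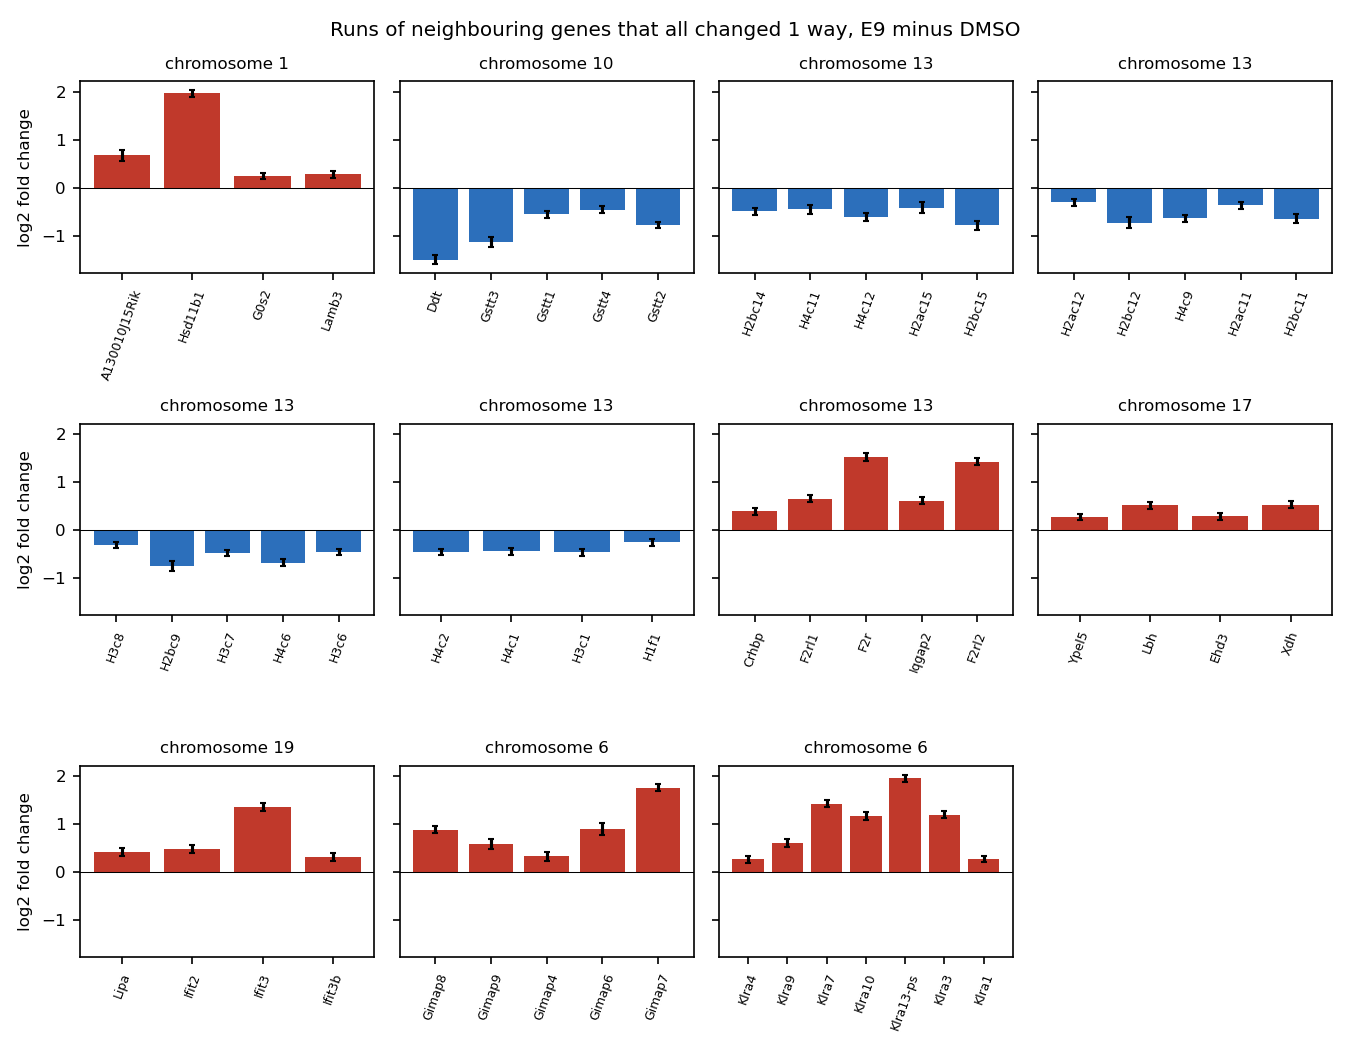
Bars give the log2 fold change, E9 minus DMSO, of each gene in the 11 runs of neighbouring genes, in chromosomal order, with the SE of the model. Runs of Klra, Gimap and F2r genes rise, and runs of histone and Gstt genes fall.

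Promoter windows were read for letters of known factors. RefSeq windows (mouse GRCm38.p6, 250 bases before to 50 after each start) were found for 9861 of the 13524 genes tested, for 76 of the 101 that rose by at least 2-fold and for 50 of the 64 that fell by at least 2-fold. Motifs were searched on both strands as NF-kB GGGANTTTC, AP-1 TGANTCA, cAMP response element TGACGTCA, interferon-stimulated response element GAAANNGAA, gamma-activated sequence TTCNNNGAA, E2F TTTNNCGC, cell cycle homology region TTTGAA, NF-Y box CCAAT, E-box CACGTG, sterol regulatory element TCACNCCAC, ATF4 and CHOP composite TGATGNAA, KLF and SP box CCACACCC, ETS CCGGAAGT, EGR GCGTGGGCG and NFAT TGGAAA. AP-1 letters stood in 19.7% of the genes that rose by at least 2-fold, 8% of those that fell by at least 2-fold and 6.72% of all genes tested. Among genes that rose by less than 2-fold the share was 6.59%, below that of all genes. Letters of the interferon-stimulated response element stood in 15.8%, 8% and 8.68% in the same order, and ETS letters in 3.95%, 2% and 8.45%. AP-1 was not alone in differing from all genes. In the same order, shares were 26.3%, 32% and 20.2% for NFAT, and 2.63%, 8% and 9.23% for E2F. They were 14.5%, 8% and 8.61% for the gamma-activated sequence, and 22.4%, 16% and 15.1% for the cell cycle homology region. For the cAMP response element they were 0%, 0% and 3.37%, and for the NF-Y box 39.5%, 32% and 42.9%. Genes that fell by less than 2-fold held E2F letters in 13.3% and NF-Y box letters in 49.6%. Among genes that rose by less than 2-fold these 2 shares were 8.6% and 40%. Of mitosis, histone and DNA replication genes, 0 fell by at least 2-fold, so those that fell are not in the 2-fold groups. NF-kB letters stood in 0 of the 76 genes that rose by at least 2-fold, 2 of the 50 that fell by at least 2-fold (4%) and 1.14% of all genes. These shares have no test, a match is a description and not a site, and matches of AP-1 overlapped another motif in 5.39% of windows, of NF-kB in 15.3% and of the interferon-stimulated response element in 16.8%. The windows below belong to genes described above that hold such letters, which are in capitals on whichever strand they match. For each gene the window with the most matches is shown, of 2 windows for Lmna, 3 for Nfkb2 and 1 for each other gene.
Lmna, chr3:88503303-88503602, minus strand, AP-1: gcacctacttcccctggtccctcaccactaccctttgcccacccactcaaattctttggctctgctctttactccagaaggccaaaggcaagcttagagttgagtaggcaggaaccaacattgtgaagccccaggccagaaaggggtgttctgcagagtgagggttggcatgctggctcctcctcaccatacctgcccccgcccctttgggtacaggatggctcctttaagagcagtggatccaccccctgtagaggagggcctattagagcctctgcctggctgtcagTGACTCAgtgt
F2r, chr13:95618417-95618716, minus strand, AP-1: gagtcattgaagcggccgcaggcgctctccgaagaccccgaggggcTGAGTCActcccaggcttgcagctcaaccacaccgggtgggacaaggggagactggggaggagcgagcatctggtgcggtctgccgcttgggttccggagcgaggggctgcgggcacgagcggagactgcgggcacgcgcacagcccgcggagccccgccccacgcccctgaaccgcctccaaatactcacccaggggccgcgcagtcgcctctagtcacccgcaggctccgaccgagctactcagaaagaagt
F2rl2, chr13:95696670-95696969, plus strand, AP-1: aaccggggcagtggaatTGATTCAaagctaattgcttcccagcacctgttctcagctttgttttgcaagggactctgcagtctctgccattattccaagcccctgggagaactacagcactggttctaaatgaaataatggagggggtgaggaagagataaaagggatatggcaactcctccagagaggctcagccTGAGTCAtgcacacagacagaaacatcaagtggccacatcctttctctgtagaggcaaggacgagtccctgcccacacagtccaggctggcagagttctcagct
Ifit3, chr19:34583279-34583578, plus strand, interferon-stimulated response element: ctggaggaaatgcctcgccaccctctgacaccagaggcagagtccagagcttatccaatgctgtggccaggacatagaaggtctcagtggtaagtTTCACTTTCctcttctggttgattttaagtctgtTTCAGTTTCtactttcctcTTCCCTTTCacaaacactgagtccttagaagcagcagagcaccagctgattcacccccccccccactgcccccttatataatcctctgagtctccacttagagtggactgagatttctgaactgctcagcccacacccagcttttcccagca
Nfkbia, chr12:55492598-55492897, minus strand, NF-kB: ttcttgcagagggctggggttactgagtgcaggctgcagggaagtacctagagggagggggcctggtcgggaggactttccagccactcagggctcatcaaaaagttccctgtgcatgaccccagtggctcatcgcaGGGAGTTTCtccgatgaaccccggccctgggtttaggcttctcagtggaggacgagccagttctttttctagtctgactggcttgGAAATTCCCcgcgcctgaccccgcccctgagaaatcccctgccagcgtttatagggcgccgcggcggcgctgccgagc
Nfkb2, chr19:46305445-46305744, plus strand, NF-kB: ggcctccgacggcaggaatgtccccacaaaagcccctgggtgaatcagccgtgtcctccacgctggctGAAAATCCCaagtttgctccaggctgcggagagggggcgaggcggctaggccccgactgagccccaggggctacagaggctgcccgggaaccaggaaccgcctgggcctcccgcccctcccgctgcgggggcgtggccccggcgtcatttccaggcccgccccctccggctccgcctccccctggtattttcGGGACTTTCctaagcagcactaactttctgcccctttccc
In the windows shown, Lmna, F2r and F2rl2, with 1, 1 and 2 AP-1 matches, rose by 2.89, 1.51 and 1.42 on the log2 scale. Ifit3, with 3 matches, rose by 1.34, and Nfkbia and Nfkb2, with 2 matches each, fell by 1.05 and 0.93.

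**Figure D5:**
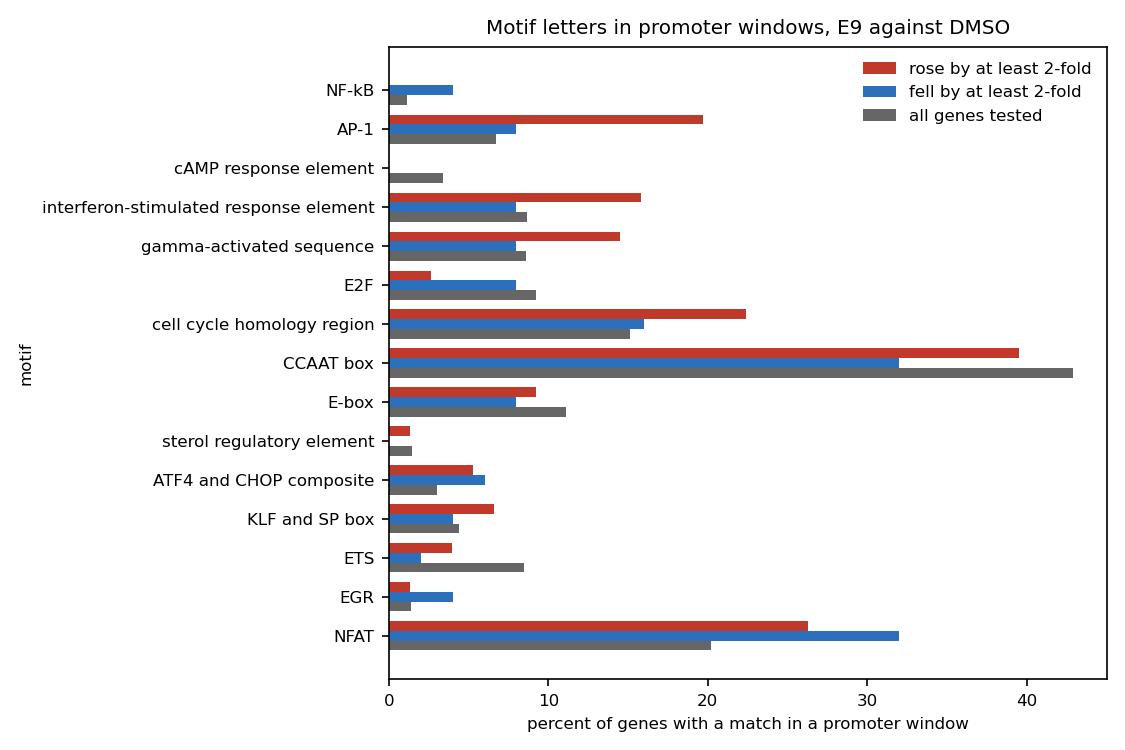
Bars give the percent of genes with a match of each motif in a promoter window, for genes that rose by at least 2-fold with E9, genes that fell by at least 2-fold and all genes tested. AP-1 stands at 19.7% among genes that rose by at least 2-fold and 6.72% among all genes.

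E9 was also set directly against epoxomicin, which shares the E9 arrays with the comparison above. In that test 1708 genes (12.6%) differed, and 940 and 939 did with epoxomicin array 1 and with epoxomicin array 2 left out. Of the 2046 genes changed against DMSO, 1291 also differed from epoxomicin in the same direction, and of the 165 changed by at least 2-fold, 162 did. Both counts use the same E9 arrays and are not independent of each other. Cd81, a tetraspanin, was among the 2-fold genes, at 120 and 95.3 with E9, against 184 on average with epoxomicin and 340.3 and 346 with DMSO.

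Markers of other cell types were read on the same arrays. In the list of B cell and MHC class II transcripts 3 of 20 measured genes rose and 2 fell; the summed intensity of its 28 genes on the array was 3348 and 3502 with E9, against 2397 and 2518 with DMSO, with 3 of 28 not above background on any array. Its members differed in direction: H2-DMa, at 1063 and 1072.5 with E9, against 375 and 338 with DMSO, accounted for most of the difference in the sum, while H2-Ab1 was at 57.1 and 55.5 with E9, against 125 and 155 with DMSO and the B cell receptor gene Cd79b at 72 and 57.8 with E9, against 115.5 and 117.3 with DMSO. Igk-C, the immunoglobulin kappa constant region, was at 242 and 378 with E9, against 199 and 229 with DMSO. For NK cell markers the sums were 2505 and 2516 with E9, against 2431 and 2508 with DMSO, while 3 of 8 measured genes rose and 0 fell. For myeloid and dendritic markers the sums were 1451 and 1459 with E9, against 1375 and 1352 with DMSO, and 1 of 15 measured genes rose and 1 fell. Sums for gamma delta and innate T cell markers were 278 and 282 with E9, against 207.5 and 207 with DMSO, and 2 of 4 measured genes rose and 0 fell. Sums for CD4 and regulatory T cell markers were 654 and 615 with E9, against 785 and 774 with DMSO, and 0 of 7 measured genes rose and 2 fell. The falls were fewer without E9 array 2 and without either DMSO array. The part of cells of other types in the differences above was not tested.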

How the data were processed

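The deposited values were probe intensities on a linear scale, quantile-normalized by the authors across the 6 arrays, as the equal sorted values of all columns show; the tool is not given in the sources used here. The deposited table of non-normalized intensities has 6 columns whose names match no label, and it was not used here. Intensities were corrected with normexp (offset 50), put on the log2 scale and tested with limma 3.58.1 in R 4.3.3, as 1 model of the E9, epoxomicin and DMSO groups, with Benjamini-Hochberg adjustment over all 13524 genes. A probe was kept when above background, an intensity of 34.6, on at least 2 arrays, and the brightest kept probe stood for its gene. Of 45281 probes, 35784 had 1 gene symbol and 9497 had none here; 31257 were matched to RefSeq and 4527 retained their array symbol. The number of arrays limits the precision. Replicate numbers were not taken as pairs: deviations of same-numbered arrays correlated at -0.317 for E9 and DMSO, -0.203 for E9 and epoxomicin and 0.214 for epoxomicin and DMSO. Named genes were the extremes of the comparison, bounded genes, the brightest changed genes, up to 6 changed members of each list, a set of marker genes and members of neighbour runs. The extremes were taken only from changed genes whose E9 and DMSO arrays did not overlap. The members and lists were chosen with earlier results of these data known. The fit was tested on simulated data.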

Additional observations from a re-analysis of the deposited data

How the results depend on the processing

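The number of genes changed against DMSO was 2046, 165 of them by at least 2-fold, with 831 in lists and 1708 that differed from epoxomicin. With an offset of 16 in the background correction the 2-fold count was 269, and without background correction it was 225. Leaving out 1 array gave 1228 to 1881 changed genes, 159 to 169 at 2-fold and 566 to 788 in lists; leaving out 1 E9 or, chosen after seeing the data, 1 epoxomicin array gave 939 to 1610 that differed from epoxomicin; a lone array is assumed to vary like the other groups. The replicate number as a block gave 1761, 165, 749 and 1415, and the pairing of the arrays is not known from the labels. A crossed pairing, chosen after seeing the data, gave 2752, 165, 1020 and 2392. Median centring gave 1092 higher and 947 lower genes, against 1019 and 1027. Taking the probe of highest mean log2 value for a gene, also chosen after seeing the data, gave 2046 changed genes. Of 411 named genes that passed, 386 were tested under all 15 alternative settings, and 323 of these passed under all of them. Over all 411, 70 lost the call under some setting, and 18 passed wherever they were tested but were not tested under the filter for all 6 arrays. The median of 16 lists changed sign under some setting. Genes near background have little measurable change, and 0.236% of the dimmest genes, with intensities up to 37.3, passed.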
